A study of Mus musculus with 6 samples.

Results

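The cytosolic and mitochondrial heat shock genes described here are Hspa1a, Hspa1b, Hspa8, Hsph1, Dnajb1, Hspb1, Hsp90aa1, Hsp90ab1, Hspd1 and Hspe1. They were taken by symbol, matched to their Ensembl identifiers, and are 10 of the 54232 genes listed for each library. All 10 passed the filter on low counts. Sequenced RNA came from cortical neurons of wildtype CD1 mice, an outbred stock, as 6 libraries in 3 groups of 2. The groups are named control, PA and PA + PS2, and the libraries of each are numbered repeat 1 and repeat 2. Library names add PDL for the control, IKVAV for PA and IKVAV with PEDOT-S for PA + PS2. IKVAV is a peptide motif of laminin, PA stands for peptide amphiphile, and PEDOT is a conducting polymer. The treatment label reads peptide amphiphile in every group, the control included, and the sources used here give neither culture age, dose nor the animals behind a library. The p-values therefore cover the spread among these libraries alone, which may be technical.

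Heat shock proteins are molecular chaperones that hold, fold or release client proteins. In the cytosol, Hsp70 proteins work in a cycle in which a J-domain protein such as Dnajb1 delivers a client and a nucleotide exchange factor such as Hsph1 frees it, and Hsp90 takes over clients that include kinases and steroid receptors. Hspd1 and Hspe1 form the folding chamber of the mitochondrial matrix. Under proteotoxic stress the transcription factor Hsf1 binds heat shock elements, which are alternating GAA and TTC units, and raises Hspa1a, Hspa1b, Dnajb1 and Hspb1 from low levels, while Hspa8 and Hsp90ab1 are held to be expressed constitutively. Neurons are known for a weak induction of Hsp70 compared with glia.

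Sequences are shown first for the members whose upstream region held a heat shock element of 3 units (GAA, TTC, GAA or TTC, GAA, TTC, with any 2 bases between neighbours), searched on both strands in the 250 bases before each RefSeq start on GRCm38.p6. Of the members with a promoter entry, Hspd1 and Hspe1 met this, Hspd1 only from its start at 55087932. Both met it through the same 18 bases, since the genes lie head to head on chromosome 1. The element is at chr1:55088059-55088076. Each is printed 5′ to 3′ on the strand of its gene as 30 bases, chr1:55088053-55088082, with the element in capitals.
Hspd1: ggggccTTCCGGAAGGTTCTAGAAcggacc
Hspe1: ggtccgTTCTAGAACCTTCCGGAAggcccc
The element begins at -144 from the Hspd1 start at 55087932 and at -89 from the Hspe1 start at 55088148. It also lies inside an annotated exon of the longer Hspd1 transcript. Of 32851 promoter windows, 153 (0.466%) held the 3-unit element, and 12.8% held the shorter form GAANNTTC or TTCNNGAA, which lies within the longer one. Hsph1 had a 3-unit match just after its starts, at 37 from the one at 149636336. Hspa1a and Hspa1b had only the shorter form in their windows, at -104 from each start. Hspb1 also had only the shorter form, at -117 and -97. Upstream of its start at 149636336, Hsph1 had the shorter form at -33. Dnajb1 had neither form in its windows. The window of the other Hspd1 start, at 55088243, also held neither form, and the printed element lies downstream of that start.

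Hspa1a and Hspa1b are neighbouring copies on chromosome 17, and their upstream regions are printed, by a choice made after the sequences were seen, because they show how alike the copies are. The 250 bases before the starts were 98.8% identical, with 3 differences, C44T, T47C and T249G, in which the Hspa1a base stands first and positions are counted from 1 at the 5′ end of the window. Bases 101 to 250 are printed on the minus strand, chr17:34972157-34972306 for Hspa1a and chr17:34959239-34959388 for Hspa1b. Capitals mark the shorter heat shock form and the 1 base that differs.
Hspa1a: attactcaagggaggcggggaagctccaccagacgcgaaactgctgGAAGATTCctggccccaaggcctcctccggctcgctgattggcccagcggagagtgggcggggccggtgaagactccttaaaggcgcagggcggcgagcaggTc
Hspa1b: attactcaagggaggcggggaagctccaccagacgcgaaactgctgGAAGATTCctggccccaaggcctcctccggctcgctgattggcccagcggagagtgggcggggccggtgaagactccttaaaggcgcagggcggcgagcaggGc
A match of letters is a description of the window and not of a bound site.

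Library totals ran from 30714311 to 33923681 counts, so 1 CPM (count per 1e+06 counts, here scaled by the TMM factors of edgeR) stood for about 31 to 34 counts. The 10 genes took 0.409% to 0.459% of each library. Of 8 neuron markers taken to check the label, none was at 0, and their summed level was 6862 and 7283 CPM in the control, 6802 and 7091 with PA, and 7163 and 6661 with PA + PS2, with overlapping groups. Of the 8, 3 were lower in both PA + PS2 libraries than in both control libraries, namely Snap25, Nefl and Dlg4, and 0 were higher. Over all genes tested the shares were 17.1% lower and 16.6% higher. Replicates of a group differed beyond counting noise in every group, with a chi-square per degree of freedom of 16.1 to 23.4 over genes. The repeat number also separated the libraries, with 901 genes (5.21% of those tested) past the threshold between repeat 2 and repeat 1 in a model holding both group and repeat.

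No member rose or fell in any of the 3 comparisons, and none had an unadjusted p under 0.05; the smallest was 0.0609, for Hsph1 between PA + PS2 and PA. The test was edgeR's quasi-likelihood F test over all 6 libraries, and a gene was called at a Benjamini-Hochberg adjusted p under 0.05 over all 17299 genes tested. Over the whole table, 0 of 17299 genes (0%) were called for PA versus control, for PA + PS2 versus control and for PA + PS2 versus PA. At an unadjusted p under 0.05 the same test gave 138 genes (0.798%), 1179 (6.82%) and 1314 (7.60%). DESeq2 called 0 (0%), 130 (0.751%) and 200 (1.16%). With the repeat number as a block in edgeR the counts were 0 (0%), 117 (0.676%) and 280 (1.62%), and neither tool called a member. With the block, Hsph1 had an unadjusted p of 0.0280 between PA + PS2 and PA.

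The levels per kb of exon set the members in an order. Hsp90ab1, the constitutive cytosolic Hsp90, had the highest level, with a mean of 709 CPM per kb and a range over the 6 libraries of 663 to 755. Hsp90aa1, its stress-inducible counterpart, followed at 221 (209 to 231), then Hspa8 at 174 (163 to 186) and Hspd1 at 86.8 (81.8 to 91.4). Hsph1 stood at 34.9 (31.3 to 39.6), Hspe1 at 27.8 (26.6 to 29.3) and Dnajb1 at 18.3 (16.5 to 20.1). Hspa1b was at 3.03 (2.59 to 3.77), Hspa1a at 0.552 (0.371 to 0.722) and Hspb1 at 0.368 (0.157 to 0.720). The ranges of neighbours in this order did not overlap except between Hspa1a and Hspb1. The level per kb of Hspa8 was 48.2 to 63.4 times that of Hspa1b in the 6 libraries. Lengths were those of all annotated exons merged, which can exceed a transcript. They were 4301 bases for Hspa8 and 1474 for Hspe1, whose longest transcripts had 3158 and 964. The levels and ratios per kb, and whether the ranges of neighbours overlap, depend on that choice.

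**Figure D1:**
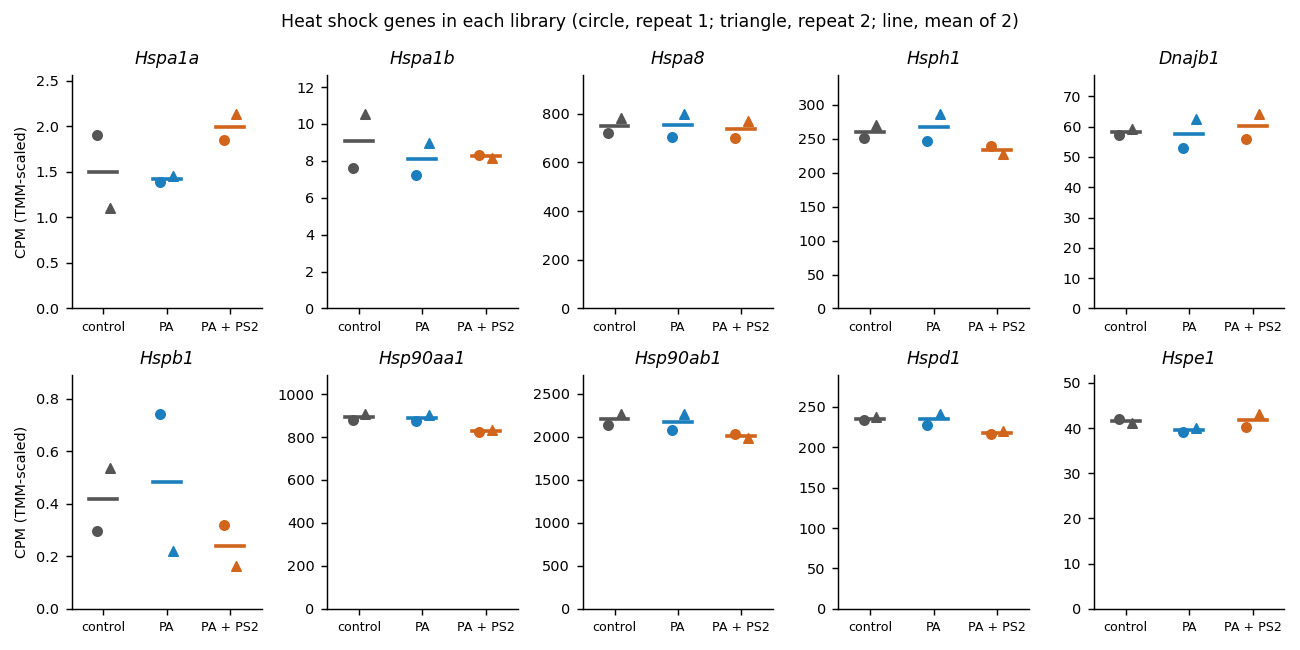
Level of each of the 10 heat shock genes in CPM (y axis, linear from 0, its own scale per gene) in control, PA and PA + PS2; circles are repeat 1, triangles repeat 2 and lines the mean of 2 libraries. Most genes sit at near-equal heights in the 3 groups, and for Hsph1, Hsp90aa1, Hsp90ab1 and Hspd1 both PA + PS2 points lie below the other 4.

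Among the Hsp70 genes, the inducible pair was at a low level in all 3 groups. Hspa1b was at 7.62 and 10.6 CPM in control 1 and 2, 7.26 and 8.99 with PA, and 8.31 and 8.18 with PA + PS2. The groups overlapped, and the highest library was a control. Its log2 fold change was -0.16 ± 0.21 (SE) for PA versus control and -0.14 ± 0.21 for PA + PS2 versus control, with adjusted p of 1.00 and 0.974. The 95% interval for PA + PS2 versus control ran from 0.647-fold to 1.27-fold.

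Hspa1a was at 1.91 and 1.10 CPM in the control, 1.39 and 1.45 with PA, and 1.85 and 2.14 with PA + PS2, from 37 to 66 counts a library. Both PA + PS2 libraries were above both PA libraries, and control 1 lay between the PA + PS2 libraries. Between PA + PS2 and PA the log2 fold change was 0.49 ± 0.38 (SE; adjusted p = 0.888), with an interval of 0.774-fold to 2.55-fold. Summed over the near-identical pair, the level was 9.53 and 11.7 CPM in the control, 8.65 and 10.4 with PA, and 10.2 and 10.3 with PA + PS2, again with overlapping groups.

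Hspa8, the constitutive cytosolic Hsp70 that also strips clathrin coats from vesicles, was at 720.3 and 781 CPM in the control, 706 and 801 with PA, and 701 and 772 with PA + PS2. The groups overlapped almost completely, and in each of them repeat 2 was the higher library. Its log2 fold change was 0.01 ± 0.09 (SE) for PA versus control and -0.03 ± 0.09 for PA + PS2 versus control (adjusted p = 1.00 and 0.995). The interval for PA + PS2 versus control, 0.851-fold to 1.13-fold, leaves room for changes of that size in either direction.

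Hsph1, the Hsp110 protein that acts as a nucleotide exchange factor for Hsp70, had the largest fitted differences of PA + PS2 from the other groups among the members above 20 CPM. It was at 251 and 270.0 CPM in the control, 247 and 287 with PA, and 239 and 228 with PA + PS2. Both PA + PS2 libraries were below the other 4, with a gap much wider in repeat 2 than in repeat 1. Against PA it was lower by a log2 fold change of -0.20 ± 0.09 (SE; adjusted p = 0.682), and within the repeats it was -0.05 in repeat 1 and -0.34 in repeat 2. Versus control it was -0.16 ± 0.09 (adjusted p = 0.836). Without PA 2 the difference from PA was -0.078, and without PA 1 it was -0.30. The blocked adjusted p were 0.316 versus PA and 0.463 versus control.

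Dnajb1, the J-domain partner that stimulates Hsp70 and is itself a heat shock target, was at 57.4 and 59.1 CPM in the control, 52.9 and 62.5 with PA, and 55.9 and 64.3 with PA + PS2. The groups overlapped, and repeat 2 was higher in each. The log2 fold change was -0.01 ± 0.11 (SE) for PA versus control and 0.05 ± 0.11 for PA + PS2 versus control, and the latter interval ran from 0.863-fold to 1.23-fold. With adjusted p of 1.00 and 0.988, neither passed.

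Hspb1, a small heat shock protein that holds unfolding clients, was near the limit of detection. Its counts were 10 and 18 in the control, 23 and 7 with PA, and 10 and 5 with PA + PS2, or 0.298 and 0.536, 0.742 and 0.221, and 0.319 and 0.162 CPM. The groups overlapped, and the PA libraries were farther apart than any pair of group means. The log2 difference of PA + PS2 from control was -0.78 ± 0.80 (SE; adjusted p = 0.949). Its interval, 0.163-fold to 2.09-fold, leaves room for large changes in either direction.

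The cytosolic Hsp90 genes were both lowest with PA + PS2, by a small margin. Hsp90aa1 was at 881 and 908 CPM in the control, 874 and 905 with PA, and 821 and 834 with PA + PS2. Hsp90ab1 was at 2135 and 2264 CPM in the control, 2075 and 2264 with PA, and 2035 and 1988 with PA + PS2. For both genes the PA + PS2 libraries lay below the other 4, and control and PA overlapped.

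For PA + PS2 versus control the log2 fold change was -0.11 ± 0.07 (SE) for Hsp90aa1 and -0.13 ± 0.07 for Hsp90ab1, with adjusted p of 0.842 and 0.835. The intervals were 0.833-fold to 1.03-fold and 0.814-fold to 1.03-fold. Versus PA the values were -0.10 ± 0.07 and -0.11 ± 0.07. The ratio of Hsp90ab1 to Hsp90aa1 per kb stayed between 3.11 and 3.28 in the 6 libraries, with overlapping groups.

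Hspd1, the mitochondrial chaperonin Hsp60, was at 234 and 238 CPM in the control, 228 and 242 with PA, and 216 and 219.9 with PA + PS2. Both PA + PS2 libraries were again below the other 4. Against control the log2 fold change was -0.11 ± 0.07 (SE; adjusted p = 0.867), with -0.11 in each repeat and an interval of 0.826-fold to 1.04-fold.

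Hspe1, its co-chaperonin Hsp10, did not share that order. It was at 42.0 and 41.2 CPM in the control, 39.2 and 39.9 with PA, and 40.3 and 43.1 with PA + PS2. Both PA libraries were below the control and below PA + PS2, whereas PA + PS2 and control overlapped. Its fitted log2 fold change was -0.07 ± 0.09 (SE) for PA versus control and 0.08 ± 0.09 for PA + PS2 versus PA (adjusted p = 1.00 and 0.950). The ratio of Hspd1 to Hspe1 per kb was 3.10 and 3.22 in the control, 3.24 and 3.38 with PA, and 2.99 and 2.84 with PA + PS2. Both PA + PS2 ratios were the lowest of the 6, and the exact two-sided permutation test gave p = 0.333 against either group, the smallest it can give with 2 libraries against 2.

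**Figure D2:**
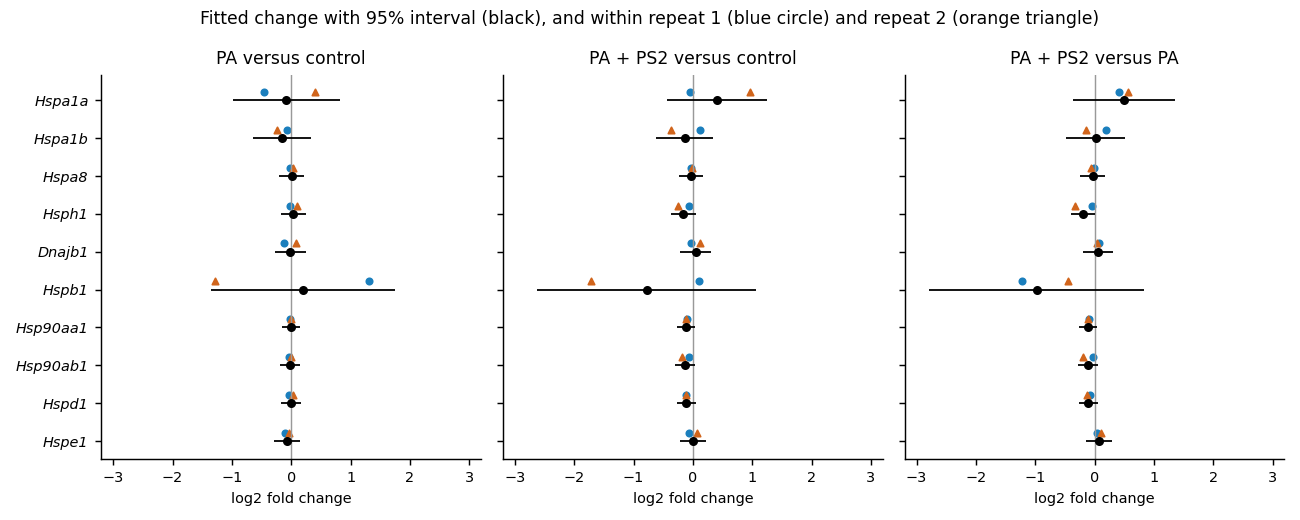
Log2 fold change of each gene (x axis) in the 3 comparisons; black points and bars are the fitted values with 95% intervals, blue circles the difference within repeat 1 and orange triangles within repeat 2. The intervals are from the fit without the repeat block. Every one of them includes 0, and those of Hspb1 and Hspa1a are the widest.

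In the fit without the block, the 7 members with a mean above 20 CPM had intervals inside 0.819-fold to 1.18-fold for PA versus control. For PA + PS2 they were inside 0.775-fold to 1.23-fold versus control and 0.756-fold to 1.25-fold versus PA. Both PA + PS2 libraries were below both control libraries for 4 of the 10 members, Hsph1, Hsp90aa1, Hsp90ab1 and Hspd1, and above them for none. The background for both libraries lower was 17.1% of all genes tested, and 16.6% for both higher. The same 4 were also below both PA libraries (background 18.4%), and 2 members, Hspa1a and Hspe1, were above both (background 16.7%). Below all 4 other libraries were these 4 genes, against 11.2% of all genes. No member was above all 4 (9.42% of all genes). Over the members the median log2 difference of PA + PS2 from control was -0.11, beside 0.01 over all genes tested, and -0.07 versus PA, beside 0.00. For PA versus control it was -0.01, beside 0.01, with 1 member, Hspe1, lower in both libraries (background 9.69%) and none higher (background 12.1%). The comparisons share libraries and are therefore not independent of each other.

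The repeats differed for some members. Hspa8 was higher in repeat 2 than in repeat 1 by 0.15 ± 0.05 (SE) on the log2 scale and Dnajb1 by 0.16 ± 0.07, with edgeR adjusted p of 0.127 and 0.235 over all genes, so neither passed. In all, 4 of the 10 members were higher in repeat 2 in all 3 groups, namely these 2 with Hsp90aa1 and Hspd1, and 19.9% of all genes were. For Hspa8 and Dnajb1 the difference between repeats was larger than any fitted difference between groups.

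The wider chaperone network was described by 9 lists. Of their genes, edgeR called none without the block, and DESeq2 called 2, Hsp90b1 and Hspa5 of the endoplasmic reticulum, for PA + PS2 versus PA. Among the heat shock factors, Hsbp1, a small inhibitor of Hsf1, was at 249 to 262 CPM and Hsf2 at 51.9 to 57.8 over the 6 libraries. Hsf1 itself, named after its values were seen, was at 26.9 to 36.9 CPM with overlapping groups. It was lower in repeat 2 than in repeat 1 in every group. In the edgeR fit with the block that log2 difference was -0.33 ± 0.08 (SE; adjusted p = 0.0449), where 5.21% of all genes passed. Among the 8 Hsp70 and Hsp110 relatives the largest by level were Hspa4, an Hsp110 protein, at 398 to 445 CPM and Hspa12a at 109 to 134. The list median log2 difference of PA + PS2 from control was 0.03 in this list and 0.03 for the heat shock factors.

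Partners of Hsp70 and Hsp90 also held no called gene. Over 11 J-domain co-chaperones the median log2 difference of PA + PS2 from control was 0.00, with Dnajc5, the synaptic vesicle J-protein, at 496 to 521 CPM and Dnaja1 at 268 to 286. The 9 exchange factors, ubiquitin co-chaperones and other Hsp70 partners had a median of -0.03. Of the other partners, St13 was at 226 to 269 CPM and Stip1, which bridges Hsp70 and Hsp90, at 191 to 209. The 11 Hsp90 co-chaperones had a median of 0.00, with Fkbp4 at 227 to 240 CPM and Cacybp at 156 to 177. For 14 subunits of the cytosolic chaperonin TRiC and of prefoldin the median was 0.02, with Cct2 at 343 to 357 CPM. With the block these lists likewise held none.

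Mitochondrial partners of Hspd1 and Hspe1 did not pass either. Hspa9, the mitochondrial Hsp70, was at 305 and 304 CPM in the control, 303 and 328 with PA, and 279.6 and 306 with PA + PS2, with overlapping groups. Its log2 difference of PA + PS2 from control was -0.06 ± 0.08 (SE; adjusted p = 0.971). The median over 15 mitochondrial chaperones and proteases was 0.03. Of the 15, 4 were higher in both PA + PS2 libraries than in both control libraries (16.6% over all genes tested) and 2 were lower (17.1%). A list of 15 genes is too short to set these shares apart from the background. The ratio of Hspd1 to Hspa9 per kb ranged from 1.17 to 1.28, and PA + PS2 overlapped both other groups.

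The small heat shock proteins other than Hspb1 were low, with 7 genes summing to 8.50 to 14.9 CPM and 5 of them tested. Cryab, the alpha-B crystallin of glia and muscle, was at 5.48 and 6.93 CPM in the control, 6.23 and 6.31 with PA, and 3.73 and 3.15 with PA + PS2. Its PA + PS2 libraries were below the other 4, with a log2 fold change versus control of -0.85 ± 0.24 (SE; adjusted p = 0.548, and 0.118 with the block). Hspb6 was at 3.21 to 4.61 CPM with overlapping PA and PA + PS2 groups. In the list 4 of 5 genes were lower in both PA + PS2 libraries than in both control libraries (17.1% over all genes) and 1 was higher (16.6%).

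Endoplasmic reticulum chaperones, which answer to the unfolded protein response rather than to Hsf1, had a lower median than the members with PA + PS2. Versus control their log2 fold changes ran from -0.64 to -0.097, and Hspa1b, Hsph1, Hsp90aa1, Hsp90ab1 and Hspd1 also lay in that range. The difference from the members was not tested. All 12 in the list were lower in both PA + PS2 libraries than in both control libraries, with a median log2 fold change of -0.25 (17.1% of all genes were lower in both). They were also all lower than in both PA libraries, with a median of -0.27 (18.4% of all genes). With the block, 2 of the 12 fell versus PA, where 1.62% of all genes were called, Hsp90b1 (the Hsp90 of the endoplasmic reticulum) with an edgeR adjusted p of 0.0179 and Hspa5 (BiP) with 0.0336. Without it edgeR gave an adjusted p of 0.411 for both and DESeq2 0.0350 and 0.0479, and with the block versus control it was 0.0510 and 0.0881. The list was chosen with these results known.

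The cytosolic and endoplasmic reticulum relatives were set against each other as ratios per kb within each library. Hsp90ab1 over Hsp90b1 was 9.51 and 10.8 in the control, 9.22 and 10.05 with PA, and 11.03 and 13.3 with PA + PS2. Hspa8 over Hspa5 was 1.605 and 1.75 in the control, 1.55 and 1.71 with PA, and 1.80 and 2.35 with PA + PS2. In both cases the PA + PS2 ratios were the highest of the 6. An exact permutation test of 2 libraries against 2 cannot give a p below 0.333, so the ratios are given as values.

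**Figure D3:**
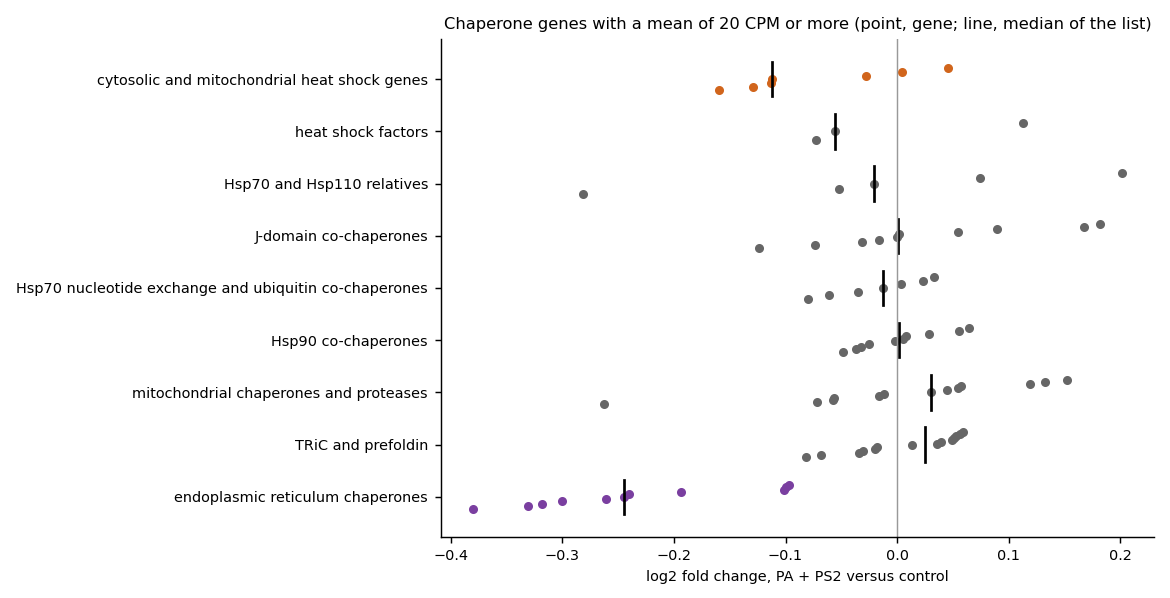
Log2 difference of PA + PS2 from control (x axis) of the chaperone genes with a mean of 20 CPM or more, by list; points are genes and short lines are medians of the genes drawn, and the small heat shock proteins are not drawn because none reached that level. The points of the cytosolic and mitochondrial heat shock genes (orange) lie near 0 or slightly below it, and all those of the endoplasmic reticulum (purple) lie below 0.

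Markers of other cell types differed between the same groups and are given beside the lower values with PA + PS2. In these bulk samples fewer cells of a type and less RNA per cell cannot be told apart. The 8 cycling cell markers summed to 76.6 and 155 CPM in the control, 87.5 and 207 with PA, and 39.6 and 42.4 with PA + PS2, and all 8 were lower in both PA + PS2 libraries than in the control (17.1% over all genes). With the block 6 of them fell versus control and 7 versus PA, where 0.676% and 1.62% of all genes were called, namely Bub1b, Ccnb1, Cdk1, Cenpe, Cenpf, Kif11 and, versus PA, Top2a. The 12 endothelial and mural markers summed to 78.9 and 123 CPM, 113 and 70.7, and 47.4 and 33.1, with 6 of the 8 tested lower in both PA + PS2 libraries than in the control (17.1% over all genes) and 2, Pdgfrb and Rgs5, falling versus PA with the block (1.62% called over all genes).

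The 10 astrocyte markers summed to 224 and 306 CPM in the control, 242 and 446 with PA, and 210.0 and 254 with PA + PS2, with overlapping groups. Slc1a2 alone was at 163 to 215 CPM. Versus control, 5 of the 10 were lower in both PA + PS2 libraries (17.1% over all genes) and 1 was higher (16.6%). Both PA + PS2 libraries were below both PA libraries for 5 of the 10 (18.4% over all genes) and above them for 1, S100b, at 2 to 20 counts where it was detected and 0 in control 2. With the block 5 of the 10, Aldh1l1, Aldoc, Aqp4, Gja1 and Mlc1, fell versus PA (1.62% called over all genes), and none was called versus control. The 8 fibroblast and meningeal markers summed to 187 and 209.7 CPM, 208 and 161, and 163 and 95.2. Of these, 5 were lower in both PA + PS2 libraries than in both control libraries (17.1% over all genes) and 0 higher (16.6%). Mgp, which was at 0 in library PA + PS2 2, fell versus PA with the block (1.62% called over all genes). The 8 oligodendrocyte markers summed to 44.7 and 45.5 CPM, 57.9 and 48.3, and 75.1 and 109.9. Of these, 6 were higher in both PA + PS2 libraries than in both control libraries (16.6% over all genes) and 0 lower (17.1%). Cldn11, Mag and Mobp rose versus control with the block (0.676% called over all genes), and Mag and Mobp also versus PA (1.62%). Cldn11 had 1 and 5 counts in the control. Mag and Mobp were at 0 in control 1 and Mobp in PA 2. The 9 microglia markers summed to 7.65 to 9.65 CPM, with 7 of them under 1 CPM in every library. The part of these cells in the levels of the heat shock genes was not tested.

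The mitochondrially encoded mRNA, read beside Hspd1 and Hspe1, rested on 7 of 13 genes, since the other 6 had at most 3 counts in any library and 2 of these were at 0 throughout, although all 13 are used by every cell. The sum was 17748 and 14834 CPM in the control, 11671 and 16811 with PA, and 14899 and 11148 with PA + PS2, with overlapping groups. The median log2 fold change of the 7 tested was -0.37 for PA + PS2 versus control, and none was called with or without the block. Its part in the values of Hspd1 and Hspe1 was not tested.

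Some members share sequence with other annotated genes, so their counts depend on how multiply mapped reads were treated, which the sources used here do not give. Of the 50-base windows of the longest Hspa1a transcript, 66.3% occurred exactly in another gene, and 62.3% of those of Hspa1b did, most of them in each other. The share was 58.5% for Hsp90aa1, 52.7% for Hspa8, 51.6% for Hspb1 and 44.8% for Hspd1, for the most part in 1 pseudogene each. It was 8.20% for Hspe1, 4.49% for Hsp90ab1, 0.441% for Dnajb1 and 0% for Hsph1. With 100-base windows the shares ranged from 0% to 56.5%, again highest for Hspa1a.

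The pseudogenes had few counts. Gm12346, a copy of Hsp90aa1, was at 2.65 to 4.32 CPM and Hspd1-ps3 at 0.779 to 1.52, while Gm15459, a copy of Hspa8, and Hsp25-ps1, a copy of Hspb1, were at 0 in all 6 libraries. Without known strand, reads over the 112 exon bases that Hspd1 and Hspe1 share on opposite strands, and over the 564 that Hspa1a shares with Gm20481, could not be assigned to 1 of the pair. The absolute levels of Hspa1a, Hspa1b, Hspa8, Hspb1, Hsp90aa1 and Hspd1 are uncertain for this reason.

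**Figure D4:**
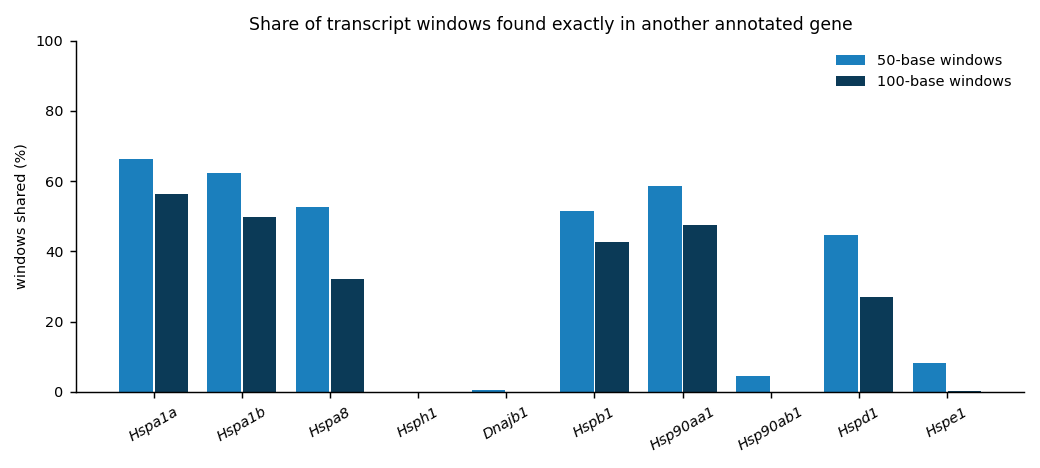
Share of 50-base (light) and 100-base (dark) windows of each gene's longest transcript (y axis, percent, from 0) that occur exactly in another annotated gene. Hspa1a and Hspa1b stand highest, and Hsph1 and Dnajb1 are at or near 0.

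The members with the largest SD of log2 CPM over the 6 libraries were Hspb1 (0.68), Hspa1a (0.34) and Hspa1b (0.19), which are also the 3 with the fewest counts. The smallest SD was that of Hspe1, at 0.05. Among genes with a mean of at least 5 CPM, the 3 most like Hspb1 over the libraries were Ahnak (Pearson r = 0.980), Tpgs2 (0.977) and Ift57 (0.973). Those most like Hspa1a were Smyd3 (r = 0.982), Tomm5 (0.979) and Fam53a (0.979). Those most like Hspa1b were Tcp1 (r = 0.990), which encodes a TRiC subunit, Lmo1 (0.982) and Hecw2 (0.981). These r are the highest of about 10776 compared over only 6 libraries that share their groups and repeats, and are given as a description.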

How the data were processed

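Each deposited file holds whole-number counts per Ensembl gene for 1 library, not normalized, per the file headers. Builds and tools in the submitters' processing notes are mm10, STAR 2.7.5, cutadapt 4.2, DESeq2 1.14.1 and HTSeq 2.0.2, without roles. The labels' protocols name an RNeasy micro kit for extraction and a TruSeq Total RNA kit for the libraries, whereas the molecule label names polyA RNA. The sources used here do not give settings, strand, read length or annotation release.

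Counts were analysed with edgeR 4.0.16 in R 4.3.3, with TMM scaling, filterByExpr by group (17299 of 54232 genes kept), and the robust quasi-likelihood F test over all 6 libraries with no block. The non-legacy form of that test was settled after the files were examined, to match an earlier processing, and the legacy form is an alternative. Standard errors were |log2 fold change| over the root of F, and 95% intervals from the t distribution. Scripts were tested on simulated data. Alternatives were RLE factors, library totals alone, other filters, DESeq2 1.42.0, only 2 groups, the repeat block, and each library left out. Exon lengths and overlaps came from GENCODE M21 on GRCm38, promoters from RefSeq on GRCm38.p6; Hspa8, Hsp90aa1 and Hsp90ab1 had no promoter entry. Same-numbered libraries deviated together (repeat 1 minus repeat 2 correlated at 0.346, 0.361 and 0.213 between groups), so the repeats were read as paired from the data, not the labels. Standard errors and intervals of the group differences come from the fit with no block and do not use this pairing.

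The members and lists were chosen with earlier results of these data known. Genes outside the members were named where past the threshold in either fit, or else as up to 2 of the highest level in a list, and 1 such gene is not reported here; the 3 genes most like each of the 3 most variable members were named by Pearson r.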

Additional observations from a re-analysis of the deposited data

How the results depend on the processing

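The 21 alternatives called no member in any comparison. The smallest adjusted p over their 626 values was 0.0924, for Hsph1 in PA + PS2 versus PA with the block and without PA + PS2 1. The log2 fold change kept its sign in 563 values and changed it in 63, all of them of members that did not pass. PA + PS2 stayed below control and below PA for Hsph1, Hsp90aa1, Hsp90ab1 and Hspd1 in all 21. Their PA + PS2 libraries lay below every control and PA library, so leaving out a library could hardly change the sign. The kept sign is therefore no added support. The size moved: versus control from -0.28 to -0.046 for Hsph1, -0.13 to -0.092 for Hsp90aa1, -0.20 to -0.061 for Hsp90ab1 and -0.13 to -0.097 for Hspd1, and versus PA from -0.30 to -0.078, -0.13 to -0.071, -0.17 to -0.039 and -0.15 to -0.056.

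The sign changes outside the omissions of a library were close to 0. For Hspa8 in PA versus control the value was -0.00086 with RLE factors, -0.0044 with no filter, -0.0039 with the filter of 50 counts in 2 libraries, -0.00087 in DESeq2 and -0.0027 in DESeq2 with the block. For Hspb1 in that comparison it was -0.025 in DESeq2 with the block. For Hspe1 in PA + PS2 versus control it was -1.3e-05 with no filter, -0.0043 with the stricter filter and -0.0019 with only 2 groups.

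Leaving out each library in turn, with and without the block, gave these ranges of the log2 fold change for PA versus control: -0.51 to 0.44 for Hspa1a, -0.38 to 0.087 for Hspa1b, -0.099 to 0.091 for Hspa8, -0.087 to 0.14 for Hsph1, -0.15 to 0.099 for Dnajb1, -1.06 to 1.23 for Hspb1, -0.046 to 0.013 for Hsp90aa1, -0.095 to 0.039 for Hsp90ab1 and -0.061 to 0.033 for Hspd1. For PA + PS2 versus control they were -0.012 to 0.93 for Hspa1a, -0.36 to 0.11 for Hspa1b, -0.10 to 0.037 for Hspa8, -0.061 to 0.14 for Dnajb1, -2.04 to 0.25 for Hspb1 and -0.049 to 0.049 for Hspe1. For PA + PS2 versus PA they were -0.17 to 0.24 for Hspa1b, -0.12 to 0.067 for Hspa8, -0.054 to 0.19 for Dnajb1 and -1.71 to 0.23 for Hspb1.

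The count over all genes was 0 in each comparison and moved as follows. DESeq2 gave 130 for PA + PS2 versus control and 200 versus PA, the replicate block 117 and 280, and DESeq2 with the block 279 and 364, with 1 for PA versus control. Over the omissions of a library the counts ran from 0 to 12, 0 to 560 and 0 to 626 for PA versus control, PA + PS2 versus control and PA + PS2 versus PA. Without the block they stayed at 0 except for 7 in PA + PS2 versus control without PA + PS2 1. With the block, PA + PS2 versus control fell to 0 without control 2 or PA + PS2 2, and rose to 503 without PA 1, 560 without PA 2 and 522 without PA + PS2 1; the cause was not tested. In the wider chaperone lists, 2 genes passed versus control in DESeq2 with the block, 2 versus PA in DESeq2, with the block and in both, and 0 to 5 in either comparison over the omissions. The pairing by repeat number changed no other call of a member or chaperone gene. Where a group kept 1 library, that library was assumed to vary like the others. Precision was limited by 2 libraries a group and, for Hspa1a and Hspb1, by their counts.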
